A study of Homo sapiens with 16 samples.

Results

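The E2F and DNA replication genes are 56 genes, chosen by symbol, that build and run the DNA replication machinery or control entry into S phase, and they were read in the 26485 genes counted in this series. All 56 symbols had a row in the count table, and all 56 passed the filter on low counts in both cell lines. RNA was sequenced from PC3 cells, a prostate cancer line, and HeyA8 cells, an ovarian cancer line, both labelled wt. In each line, cells were mock-treated or transfected with a non-targeting siRNA (siNT1), with siGGGGGC, whose guide carries the seed GGGGGC, or with siCAG, which the sample labels name without giving its sequence. The treatment field of the labels gives siGGGGGC, while sample titles and the count table call the same libraries siMxy, and the seed is taken from the treatment field. The transfected cells received 1 nM of siRNA by the labels, where the study's methods state a higher dose. RNA was taken after 24 and 48 h, and each line, treatment and time has 1 library (16 in all). The 24 and 48 h libraries therefore served as the 2 replicates of a condition, every SD below includes the difference between the times, and nothing in the labels says that libraries came from separate cultures. The study's methods describe wells transfected in duplicate, some lysed at 24 h and the remaining ones at 48 h. Between 27937092 and 29971612 reads were counted on genes per PC3 library and between 29128446 and 31790209 per HeyA8 library. As bulk samples, the libraries cannot tell fewer cells in S phase from less RNA per cell.

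The E2F transcription factors switch on a shared set of genes as a cell passes from G1 into S phase, and pocket proteins of the RB1 family hold them in check. Their targets license origins of replication (ORC1, ORC6, CDC6, CDT1 and the MCM2 to MCM7 helicase), activate the helicase (MCM10, CDC45 and the GINS complex), copy DNA (polymerases, PCNA and the RFC clamp loader) and supply deoxynucleotides. In proliferating cancer cells these genes are highly expressed, and they are widely read as a measure of S-phase entry. CDKN1A, which blocks cyclin-dependent kinases, bears on the same switch.

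The labelled lines were checked against their defining genes. PAX8, a transcription factor of ovarian and Müllerian epithelium, ranged from 45.5 to 190.1 in PC3 and from 1823 to 6633 in HeyA8 cells. The epithelial keratins KRT8 and KRT18 were abundant in all libraries. The prostate genes KLK2 and KLK3 had no reads in any library, so the lines were told apart here by PAX8 and not by prostate genes. Other ovarian markers were low or alike in the lines. MUC16, an ovarian cancer antigen, had at most 5 reads in HeyA8 and 20 in PC3 cells and WT1, another ovarian marker, at most 521 and 424. The T cell gene CD3E had 0 reads throughout, and the leukocyte gene PTPRC at most 12. The endothelial genes PECAM1 and CDH5 reached 159 and 270 reads.

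Promoter sequences are shown for 6 members whose RNA fell most, overall or within their role, in the comparison described next. The group is named for E2F, whose letters were searched in them, and the BRIP1 window held none. They were taken from a table of RefSeq promoters (GRCh38.p14), in which 49 of the 56 members were matched; those of MCM4, MCM5, GINS4, ATAD2, FAM111B, E2F8 and CCNE2 were not used here. Each runs 5′ to 3′ from 250 bases before to 50 bases after the start, and the windows are E2F2 at chr1:23531184-23531483 (minus strand), ZNF367 at chr9:96418321-96418620 (minus strand), BRIP1 at chr17:61863479-61863778 (minus strand), CDC6 at chr17:40287629-40287928 (plus strand), HELLS at chr10:94545538-94545837 (plus strand) and RFC3 at chr13:33817899-33818198 (plus strand). Capitals mark E2F letters (TTTCGCGC, TTTGGCGC or TTTCCCGC), NF-Y letters (CCAAT) or CHR letters (TTTGAA), each searched on both strands, so that the complements also appear in capitals.
E2F2: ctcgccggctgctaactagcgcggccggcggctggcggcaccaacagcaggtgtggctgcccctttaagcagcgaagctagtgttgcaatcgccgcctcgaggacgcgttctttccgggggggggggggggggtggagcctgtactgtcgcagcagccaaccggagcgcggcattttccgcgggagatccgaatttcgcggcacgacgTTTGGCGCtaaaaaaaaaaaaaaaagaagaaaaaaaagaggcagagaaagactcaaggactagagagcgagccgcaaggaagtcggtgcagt
ZNF367: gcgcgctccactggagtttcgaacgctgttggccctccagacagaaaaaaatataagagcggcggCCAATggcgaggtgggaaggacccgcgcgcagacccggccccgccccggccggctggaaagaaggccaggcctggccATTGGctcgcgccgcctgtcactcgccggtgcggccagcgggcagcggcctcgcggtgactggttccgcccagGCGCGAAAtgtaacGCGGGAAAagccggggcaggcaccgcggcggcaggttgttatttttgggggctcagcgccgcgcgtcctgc
BRIP1: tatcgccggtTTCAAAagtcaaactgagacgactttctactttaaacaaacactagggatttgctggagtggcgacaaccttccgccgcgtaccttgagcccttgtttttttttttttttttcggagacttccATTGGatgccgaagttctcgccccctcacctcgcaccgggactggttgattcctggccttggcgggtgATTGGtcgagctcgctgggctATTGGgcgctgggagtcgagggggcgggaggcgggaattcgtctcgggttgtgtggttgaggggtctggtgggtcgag
CDC6: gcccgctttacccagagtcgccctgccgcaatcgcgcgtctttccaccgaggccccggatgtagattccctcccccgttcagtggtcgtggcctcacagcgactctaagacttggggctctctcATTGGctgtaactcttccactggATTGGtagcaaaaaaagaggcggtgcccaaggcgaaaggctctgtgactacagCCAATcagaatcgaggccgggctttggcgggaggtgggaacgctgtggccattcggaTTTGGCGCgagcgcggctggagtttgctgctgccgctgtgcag
HELLS: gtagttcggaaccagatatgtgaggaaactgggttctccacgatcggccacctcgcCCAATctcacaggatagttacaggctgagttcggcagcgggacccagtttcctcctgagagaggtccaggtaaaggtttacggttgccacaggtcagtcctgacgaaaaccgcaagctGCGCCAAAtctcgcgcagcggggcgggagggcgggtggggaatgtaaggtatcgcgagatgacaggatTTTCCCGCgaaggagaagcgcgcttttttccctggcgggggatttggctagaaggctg
RFC3: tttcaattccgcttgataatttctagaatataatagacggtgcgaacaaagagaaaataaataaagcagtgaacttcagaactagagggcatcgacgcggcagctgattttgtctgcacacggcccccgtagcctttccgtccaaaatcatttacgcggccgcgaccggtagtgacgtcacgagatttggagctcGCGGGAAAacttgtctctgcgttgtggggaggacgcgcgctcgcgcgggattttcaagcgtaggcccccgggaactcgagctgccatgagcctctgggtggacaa

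At least 1 of the 3 E2F words was found in 26 of the 49 member promoters (53.1%), against 2.74% of all 35116 promoters of the same length in the table. CCAAT occurred in 29 of 49 (59.2%) against 34.6%, and TTTGAA in 2 of 49 (4.08%) against 15.2%. E2F letters were present in 20 of 36 promoters of members that fell in HeyA8 cells after siCAG and in 6 of 13 of those that did not pass. The ZNF367 promoter carried 2 E2F words, both printed as complements, at bases -35 and -21 from the start, and the E2F2 promoter 1 at -42. BRIP1 had no E2F word in this window and 3 CCAAT boxes, at -117, -49 and -28. These matches describe letters in a window and not binding. The list was drawn up to hold E2F-driven genes, so its excess of E2F letters is not an independent result. The 35116 promoters were not matched to those of the members for base composition or expression.

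After siCAG the replication genes fell together in HeyA8 cells. Against siNT1, 41 of the 56 fell at an adjusted p under 0.05 (edgeR quasi-likelihood test, siRNA and time as terms) and none rose, while 4.93% of the 13872 genes tested were called lower and 2.88% higher. The median log2 fold change of the 56 was -2.85, beside -0.01 for all genes tested, and all 56 had a negative estimate. Their share of all reads was 0.633% and 0.56% after siNT1 at 24 and 48 h, and 0.158% and 0.0618% after siCAG. In 55 of the 56, both siCAG libraries lay below the other 6 libraries of the line, which held for 18.9% of all genes tested. E2F7 was the exception. The calls rested on both control libraries, and most were lost without the siNT1 library of 24 h or that of 48 h. Such a fit holds 1 siNT1 library, and other groups supply the spread. Further members gained a call with DESeq2 or without a siCAG library, so the counts by role below depend on the fit. With 1 library left out, the median log2 fold change of the 56 stayed between -4.07 and -2.25. That of PCNA, whose call was lost, stayed between -2.63 and -2.31. RFC3, HELLS, ATAD2, FAM111B, BRIP1, E2F2, CCNE2 and ZNF367 were called in either case, and POLE2 without the 24 h library.

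**Figure D1:**
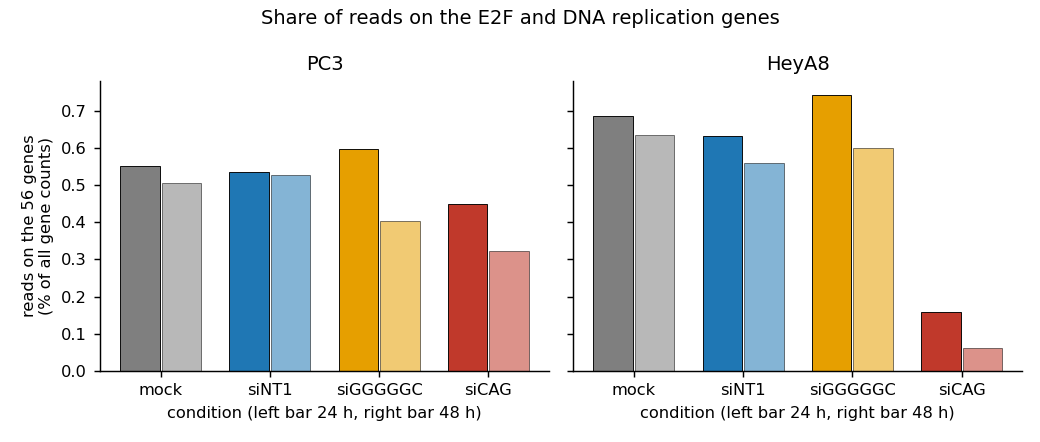
Reads on the 56 genes as a percentage of all reads counted on genes (vertical axis), in PC3 (left) and HeyA8 cells (right), 1 bar per library, with 24 h on the left and 48 h on the right of each pair. The HeyA8 siCAG bars stand at 0.158% and 0.0618%, and the other 14 bars lie between 0.322% and 0.743%.

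Of the 10 members that license origins 8 fell, among them all 6 MCM subunits that encircle DNA as the replicative helicase. CDC6, which loads those subunits, had 4751 and 3815 normalised counts after siNT1 at 24 and 48 h and 374 and 37.7 after siCAG. Mock and siGGGGGC libraries held 4327 to 6433, so the siCAG libraries stood far apart from every other. Its log2 fold change was -4.73 ± 0.81 (SE; adjusted p = 0.0251). MCM4 fell by 3.55 on the log2 scale, from 18396 and 18472 to 2776 and 769. The origin recognition subunit ORC6 fell by 3.13. ORC1 (-3.87) and the licensing factor CDT1 (-3.74) did not pass, with adjusted p values of 0.0512 and 0.0515.

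Helicase activation was called in 1 of 6 members, although all 6 estimates were between -4.33 and -2.08. GINS1, a subunit of the GINS complex that joins MCM to the polymerase, fell from 1099 ± 137 (SD, n = 2) to 168 ± 163 (log2 fold change -2.93 ± 0.58, adjusted p = 0.0361). The siCAG libraries of GINS1 were 283 at 24 h and 52.6 at 48 h, a spread as wide as the mean. MCM10, a helicase activator, went from 351 to 6.95 between the same times. Its estimate of -4.33 ± 1.19 did not pass (adjusted p = 0.0706), and neither did CDC45 (-3.37), GINS2 (-3.90), GINS3 (-2.08) and GINS4 (-2.15).

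Polymerases, the sliding clamp and its loader fell in 11 of 13 members, with smaller estimates (median log2 fold change -2.07). PCNA, the clamp that tethers polymerases to DNA, had 6143 and 5536 normalised counts after siNT1 and 1016 and 1099 after siCAG. Both siCAG values were close together and well below the lowest other HeyA8 library, 5348. The log2 fold change was -2.46 ± 0.22 (adjusted p = 0.00518). RFC3, a clamp loader subunit, fell from 2773 and 2425 to 332 and 144 (-3.53 ± 0.33, adjusted p = 0.00538). POLE2, a subunit of polymerase epsilon, fell from 529 and 477 to 44.2 and 49.6. The other members that fell were POLA1, PRIM1, POLD1, POLE, RFC2, RFC4, RFC5 and FEN1, between -3.20 and -1.47, and POLA2 (-1.73) and LIG1 (-1.87) did not pass.

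Deoxynucleotide supply was called in RRM1 alone. RRM1, the large subunit of ribonucleotide reductase, fell from 9855 and 9344 to 2699 and 603 (log2 fold change -2.71 ± 0.57, adjusted p = 0.0397). RRM2, the small subunit, read 4366 at 24 h and 36.7 at 48 h after siCAG, and its estimate of -2.61 carried a standard error of 1.51 (adjusted p = 0.293). Thymidylate synthase TYMS (-1.80) and thymidine kinase TK1 (-2.15) also did not pass. TK1 had 3029 normalised counts at 24 h and 82.4 at 48 h after siCAG, beside 5058 and 5097 after siNT1.

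All 6 genes of replication-coupled chromatin fell. HELLS, a chromatin remodeller needed for DNA methylation, dropped from 1679.8 and 2008 to 77.6 and 134 (log2 fold change -4.14 ± 0.31, adjusted p = 0.00263). Both siCAG libraries were below the lowest other HeyA8 value, 1679.8. The chaperone subunits CHAF1A (-2.62) and CHAF1B (-3.71), the hemimethylation reader UHRF1 (-2.62) and the E2F cofactor ATAD2 (-3.53) fell as well. SLBP, which binds histone mRNA, fell least (-1.39 ± 0.22, adjusted p = 0.0204), from 3203 and 2442 to 1070.3 and 1058.

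Among the genes of fork checkpoint and origin control, FAM111B, a gene of the same protease family as FAM111A, had the lowest estimate of all 56. It had 1726 reads at 24 h and 1029 at 48 h after siNT1, and 3 and 2 reads after siCAG. In normalised counts these were 1667 and 1118 against 2.95 and 1.99. The log2 fold change was -9.07 ± 0.32 (adjusted p = 0.000413), a fitted value that depends on how the model treats so few reads. Scaled by library, the ratio was 566-fold at 24 h (95% exact counting interval 193 to 2748) and 563-fold at 48 h (155 to 4655), intervals that cover counting error only. With the 2 reads of 48 h raised to a floor of 3, the later ratio was 375-fold. The checkpoint mediator CLSPN (-4.35), the ubiquitin ligase adaptor DTL (-4.92), the checkpoint kinase CHEK1 (-2.04) and the fork protector TIPIN (-1.98) fell. FAM111A (-1.64), the paralogue of FAM111B, did not pass (adjusted p = 0.0682).

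Recombination and repair genes fell in 4 of 4. BRIP1, the helicase partner of BRCA1, had 1199.7 and 806 normalised counts after siNT1 and 58.9 and 11.9 after siCAG (log2 fold change -4.98 ± 0.48, adjusted p = 0.00568). BRCA1 fell by 2.52, the nuclease EXO1 by 3.82 and the recombination gene RAD51AP1 by 3.33 on the log2 scale.

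Of the 7 regulators of S-phase entry 5 fell. E2F1 had 1678 and 1314 normalised counts after siNT1 and 190.5 and 21.8 after siCAG (log2 fold change -4.09 ± 0.73, adjusted p = 0.0283). E2F2, a second activator, had 264 and 127 reads after siNT1 and 4 and 0 after siCAG (-6.63 ± 0.63, adjusted p = 0.00564). Counting 3 reads as the floor for the library with none, its ratio at 48 h was 46.3-fold, and the exact counting interval reached down to 37.1. Cyclin E2 (CCNE2), which drives CDK2 at the G1/S transition, fell from 2068 and 917 to 13.7 and 36.7 (-5.78 ± 0.65, adjusted p = 0.00815). CCNE1 fell less, from 329 and 230.3 to 81.5 and 42.7 (-2.19 ± 0.34, adjusted p = 0.0197). ZNF367, a zinc finger gene whose promoter above holds 2 E2F words, fell from 4349.7 and 2881 to 114 and 84.4 (-5.17 ± 0.25, adjusted p = 0.0016). E2F8 (-3.17) did not pass (adjusted p = 0.0572).

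E2F7, a repressor of the E2F programme, read 2739.6 at 24 h and 4829.9 at 48 h after siCAG, against 4667 and 4670.2 after siNT1. Its 48 h library lay within the range of the other treatments and its 24 h library below them, and its log2 fold change of -0.30 ± 0.34 did not pass (adjusted p = 0.581).

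**Figure D2:**
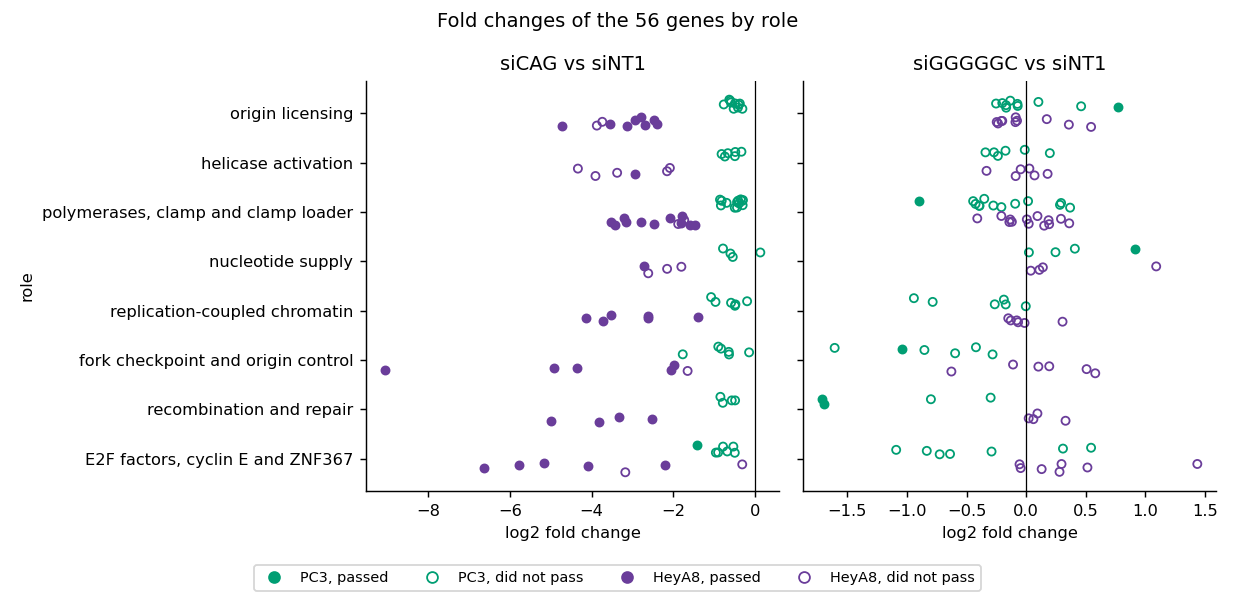
Log2 fold changes (horizontal axis) of the 56 genes by role (vertical axis) after siCAG (left) and siGGGGGC (right) against siNT1; filled points passed an adjusted p of 0.05, open points did not, PC3 in green and HeyA8 in purple. After siCAG the HeyA8 points lie between -9.07 and -0.30 and the PC3 points between -1.76 and 0.14.

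The 2 times of the siCAG fall in HeyA8 cells were read from single libraries and so without a test. The change in log2 ratio from 24 to 48 h ran from -6.45 (RRM2) to 2.56 (CCNE2), with CHEK1 (-0.12) and FAM111B (0.11) near 0. At 24 h the median log2 ratio of siCAG to siNT1 was -2.25, and at 48 h it was -4.07. In 46 of 56 members the ratio was lower at 48 h, and in 23 it was lower by more than 2 on the log2 scale. Both counts include E2F2, whose 48 h siCAG library had 0 reads, so that its change rests on the 0.5 added to counts. The ratio differed most between the times in RRM2 (-1.20 at 24 h, -7.66 at 48 h), MCM10 (-2.91 and -8.22), TK1 (-0.74 and -5.94) and GINS2 (-2.60 and -6.85). None of these passed in the fit over both times. The nucleotide supply genes had a median of -0.97 at 24 h and -5.05 at 48 h, and the helicase activators one of -2.11 and -5.20.

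The 10 members with a higher ratio at 48 h than at 24 h were POLE2, PCNA, HELLS, SLBP, TIPIN, FAM111A, FAM111B, E2F7, CCNE2 and ZNF367. CCNE2 was at -7.18 at 24 h and -4.62 at 48 h, and FAM111A at -2.65 and -0.82. ZNF367 was at -5.25 and -5.09. FAM111B (-8.92 and -8.81) had 3 and 2 reads in the siCAG libraries, too few to tell its ratios at the 2 times apart. With 1 siCAG library per time, whether members differed in the timing of their fall was not tested.

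**Figure D3:**
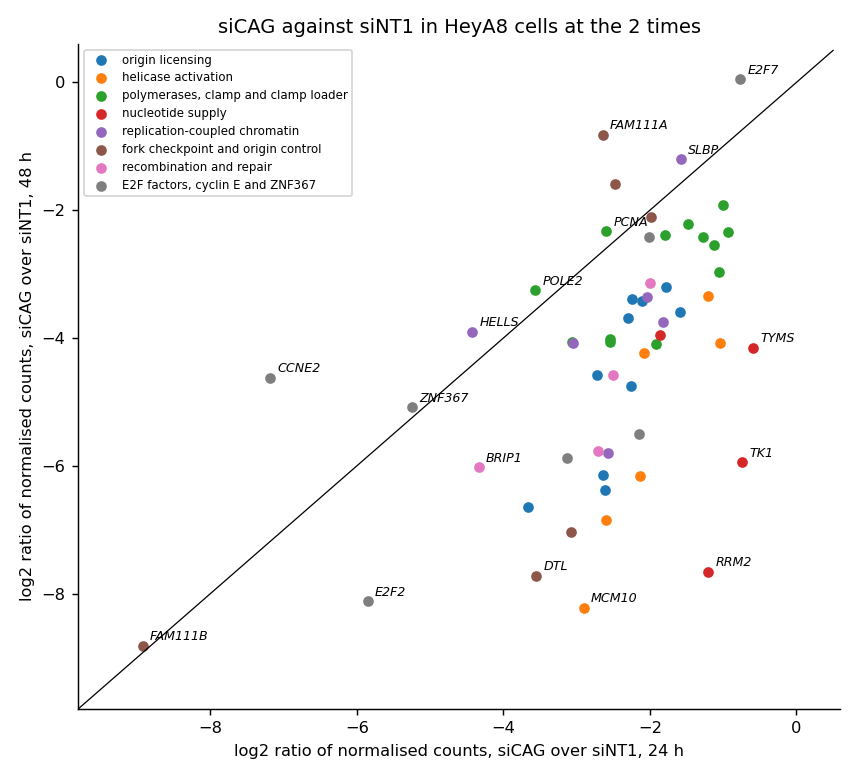
Log2 ratio of normalised counts (0.5 added to each) of siCAG over siNT1 in HeyA8 cells at 24 h (horizontal axis) and 48 h (vertical axis), 1 point per gene, coloured by role, with the line of equal ratios. RRM2, TK1, TYMS and MCM10 lie well below the line, and CCNE2 and FAM111A above it.

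In PC3 cells the same siRNA gave smaller estimates, and only ZNF367 was called against siNT1, among 1.16% of the 15136 genes tested called lower and 0.0396% called higher. It had 1424 and 1371 normalised counts after siNT1, 702 and 377 after siCAG, and 984 and 958 in mock libraries (log2 fold change -1.42 ± 0.24, adjusted p = 0.0357). Both siCAG libraries were the lowest of the line, but against mock the call was lost (adjusted p = 0.0875). Without the siCAG library of 48 h the adjusted p was 0.344, and without the siNT1 library of 24 or 48 h it was 0.114 or 0.582.

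The other 55 members did not pass, yet 55 of 56 estimates were negative, with a median of -0.57 beside -0.01 for all genes tested. At an unadjusted p under 0.05, 35 were lower and 0 higher, beside 1288 lower and 749 higher of all 15136 genes. At 24 h the median log2 ratio was -0.32 and at 48 h -0.79, and all 56 ratios were lower at 48 h. RRM2 (0.14 ± 0.18) was the member with a positive estimate. FAM111B had the lowest, -1.76 ± 0.46 (adjusted p = 0.154), from 1365 and 472 to 471 and 101, so that its 24 h siCAG library was level with its 48 h siNT1 library. PCNA was at -0.69 ± 0.20, E2F1 at -0.49 ± 0.27, CCNE1 at -0.95 ± 0.26 and CCNE2 at -0.52 ± 0.35. In 16 of 56 members both siCAG libraries were below the other 6, against 8.81% of all genes tested. The count of calls depended on the libraries in the fit: with the 4 siCAG and siNT1 libraries alone, 45 members were called, all lower, beside 1624 lower and 722 higher calls over all genes.

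Whether siCAG acted differently in PC3 and HeyA8 cells was read from an interaction term fitted on the 16 libraries together. By that term, 12 members were called higher (less lowered in PC3) and 0 lower, where 0.384% and 0.252% of the 15887 genes tested were called. They were MCM4, PRIM1, POLE2, PCNA, RFC3, RFC4, HELLS, FAM111B, BRIP1, E2F2, CCNE2 and ZNF367. The difference was 1.66 ± 0.30 for PCNA (adjusted p = 0.0376), 3.64 ± 0.33 for ZNF367 (adjusted p = 0.00452) and 5.15 ± 0.73 for CCNE2 (adjusted p = 0.0115). For E2F1 it was 3.45 ± 0.80 and did not pass (adjusted p = 0.0905), and for CCNE1 it was 1.13 ± 0.44 (adjusted p = 0.277). Estimates were positive in 55 of 56 members, and E2F7 (-0.69 ± 0.38) was the other. With 1 library left out, the median difference of the 56 lay between 1.58 and 3.27, beside 2.25 in the main fit. The count of members called moved widely in both directions. Calls over all genes in those fits are not given here, so that count has no background.

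**Figure D4:**
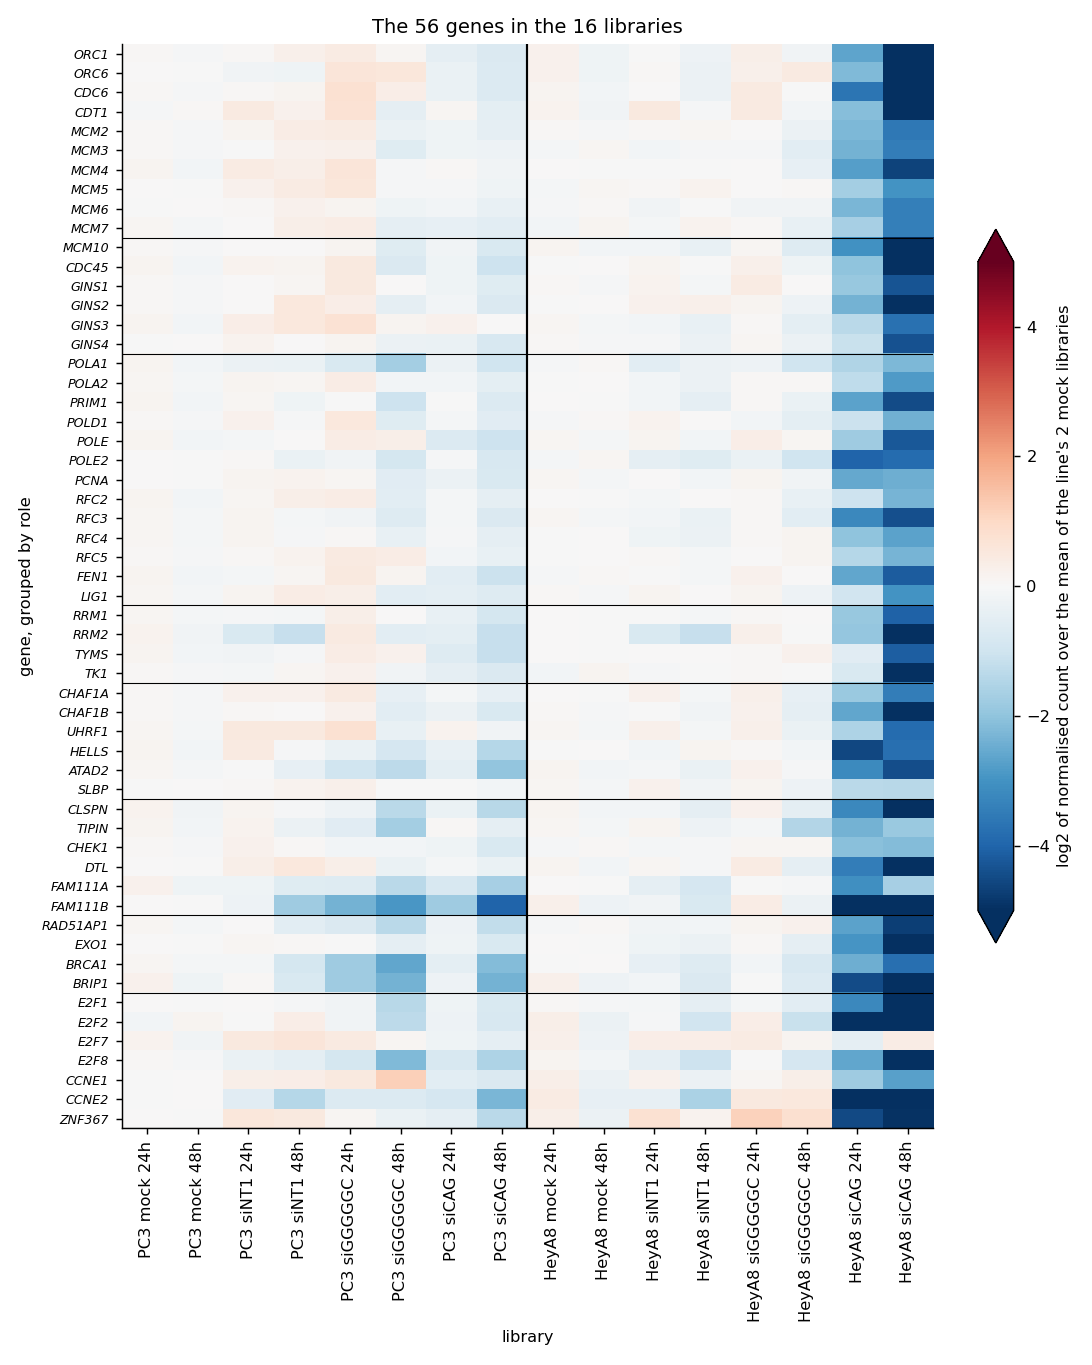
Log2 of the normalised count over the mean of the line's 2 mock libraries (0.5 added to counts; colour, blue lower and red higher, capped at 5 either way) for the 56 genes (rows, by role) in the 16 libraries (columns, PC3 left of the black line). The dark blue columns are the HeyA8 siCAG libraries, and E2F7 is the row without blue at 48 h.

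The cyclin-dependent kinase inhibitor CDKN1A moved beside these genes in 1 line. In HeyA8 cells it had 12358 and 11096 normalised counts after siNT1 and 47203 and 54134 after siCAG (log2 fold change 2.11 ± 0.26, adjusted p = 0.00993). In PC3 cells it had 1503 and 916 after siNT1 and 1259 and 854 after siCAG (-0.17 ± 0.26, adjusted p = 0.814). The siCAG effect on CDKN1A differed between the lines by -2.39 ± 0.40 (adjusted p = 0.0286). Whether CDKN1A had a part in the fall of the replication genes was not tested.

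siGGGGGC moved a few members in PC3 cells, in both directions. Its comparison used the same siNT1 libraries as that of siCAG. Against siNT1, 4 fell and 2 rose, where 6% of all genes tested were called lower and 3.67% higher, so the share of members called was near the background. The estimates had a median of -0.25. BRIP1 had 2559.9 and 1426 normalised counts after siNT1 and 715 and 469 after siGGGGGC (log2 fold change -1.72 ± 0.36, adjusted p = 0.0325). BRCA1 fell from 1504 and 863 to 463 and 266 (-1.70 ± 0.32, adjusted p = 0.0253). The fork protector TIPIN fell from 421 and 304 to 250.3 and 115 (-1.04 ± 0.24, adjusted p = 0.0397). POLA1, the catalytic subunit of polymerase alpha, fell from 2328 and 2236 to 1684 and 879.5 (-0.90 ± 0.23, adjusted p = 0.0474). In all 4 genes both siGGGGGC libraries lay below both siNT1 libraries.

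ORC6 and RRM2 were the members that rose. ORC6 had 886 and 860.0 normalised counts after siNT1, 1512 and 1470.4 after siGGGGGC and 1006 and 1003 in mock libraries (log2 fold change 0.77 ± 0.16, adjusted p = 0.0328). RRM2 had 7877 and 5902 after siNT1 and 17876 and 9138 after siGGGGGC (0.92 ± 0.18, adjusted p = 0.0281). Its mock libraries held 14968 and 11736, so the siGGGGGC values surrounded them, and against mock the log2 fold change was -0.05 (adjusted p = 0.871). The PC3 calls also needed both control libraries, since without either siNT1 library no member and no gene was called. The count of members called also moved when either siGGGGGC library was left out. Calls over all genes in those fits are not given here, so that count has no background. With a siNT1 or siGGGGGC library left out, the median log2 fold change of the members lay between -0.56 and 0.01.

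The 2 times after siGGGGGC in PC3 cells were read from single libraries, without a test. The median log2 ratio to siNT1 was 0.16 at 24 h and -0.59 at 48 h, with 25 of 56 members lower at 24 h and 46 at 48 h. The log2 ratio of E2F1 was -0.19 at 24 h and -1.33 at 48 h, and that of E2F2 -0.13 and -1.62. PCNA had 6090.3 and 3817 normalised counts, against 6242 and 6453 after siNT1. CCNE1 went the other way, from 191 and 196 after siNT1 to 218 and 353 (0.54 ± 0.25, adjusted p = 0.182). In 7 members (ORC6, CDC6, POLE, RFC5, FEN1, TYMS and CCNE1) both siGGGGGC libraries were above the other 6 libraries, against 16% of all genes tested. In TIPIN both were below, against 15%. On neither side did the share of members exceed that of all genes. CCNE2 (0.31 ± 0.35), ZNF367 (-0.64 ± 0.23), E2F1 (-0.73 ± 0.27) and PCNA (-0.39 ± 0.20) did not pass.

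In HeyA8 cells no member was called after siGGGGGC, and neither was any gene (0% lower and 0% higher of 13872). At an unadjusted p under 0.05, 0 members were lower and 3 higher, and over all genes 851 were lower and 501 higher. DESeq2 called no member, with 263 genes lower and 55 higher. Fitted on the 4 siGGGGGC and siNT1 libraries alone, CCNE2, FAM111A and RRM2 were called higher, beside 769 lower and 411 higher over all genes. Without the siCAG libraries CCNE2 and RRM2 were called higher, beside 347 lower and 130 higher. The 4 members with the smallest p were CCNE2 (log2 fold change 1.44 ± 0.52, adjusted p = 0.472), FAM111B (0.51 ± 0.20, adjusted p = 0.497), ZNF367 (0.51 ± 0.21, adjusted p = 0.503) and TIPIN (-0.63 ± 0.42, adjusted p = 0.689). CCNE2 had 3854 and 3879.9 normalised counts after siGGGGGC, against 2068 and 917 after siNT1 and 3660.1 and 2027 in mock libraries. PCNA (0.02 ± 0.21), E2F1 (-0.06 ± 0.62) and CCNE1 (0.28 ± 0.32) were close to 0 for their errors. In 9 members both siGGGGGC libraries were above the other 6, against 8.03% of all genes tested, and in 0 both were below, against 8.79%.

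The siGGGGGC effect did not pass as a difference between the lines in any member or gene (0% lower and 0% higher of 15887). At an unadjusted p under 0.05, 7 members were lower in PC3 and 0 higher, beside 700 and 354 of all genes, and DESeq2 called 12 genes lower and 7 higher but no member. The lowest estimates were FAM111B (-2.12 ± 0.54, adjusted p = 0.667), BRIP1 (-1.82 ± 0.58, adjusted p = 0.709) and BRCA1 (-1.77 ± 0.52, adjusted p = 0.677). ZNF367 was at -1.16 ± 0.31 (adjusted p = 0.667).

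Sites for the siGGGGGC seed were sparse in these genes. GCCCCC was present in the 3′ UTR of the canonical GENCODE transcript in 8 of 56 members (14.3%), against 30.5% of 12700 genes tested in PC3 cells, with median UTR lengths of 1048 and 1326 bases. The 8 were RRM2, UHRF1, SLBP, TIPIN, DTL and BRCA1 with 1 site each, E2F1 with 2 and E2F2 with 8. Of the 4 members that fell after siGGGGGC in PC3 cells, BRCA1 and TIPIN held a site and POLA1 and BRIP1 held none, and RRM2, which rose, held 1.

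Some members read lower after siNT1 than in mock libraries, though none passed. In PC3 cells 0.0264% of genes were called lower and 0.205% higher, and at an unadjusted p under 0.05 there were 3 members lower and 1 higher, beside 584 and 780 of all genes. In HeyA8 cells 0% were called lower and 0% higher, no member had an unadjusted p under 0.05, and 88 genes were lower and 89 higher at that level. DESeq2 called 1 member in PC3 (RRM2) and none in HeyA8 cells, and its calls over all genes are not given here, so that count has no background. With the 4 mock and siNT1 libraries of HeyA8 cells fitted alone, 15 members were called lower and 2 higher, RRM2, CCNE2, BRCA1, E2F8 and FAM111B among the 17, beside 671 lower and 903 higher over all genes in that fit. RRM2 had 14968 and 11736 normalised counts in mock PC3 libraries and 7877 and 5902 after siNT1 (log2 fold change -0.96 ± 0.18, adjusted p = 0.125). In HeyA8 cells it had 17094 and 16618 in mock libraries and 10045 and 7512 after siNT1 (-1.02 ± 1.34, adjusted p = 1). In both lines the siNT1 libraries were below both mock and both siGGGGGC libraries. CCNE2 showed estimates of -1.01 ± 0.35 in PC3 (adjusted p = 0.43) and -0.95 ± 0.51 in HeyA8 cells (adjusted p = 1). ZNF367 lay at 0.52 ± 0.23 and 0.46 ± 0.21, E2F1 at -0.01 ± 0.27 and -0.28 ± 0.62, CCNE1 at 0.33 ± 0.26 and -0.04 ± 0.32, and PCNA at 0.16 ± 0.20 and -0.04 ± 0.21.

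**Figure D5:**
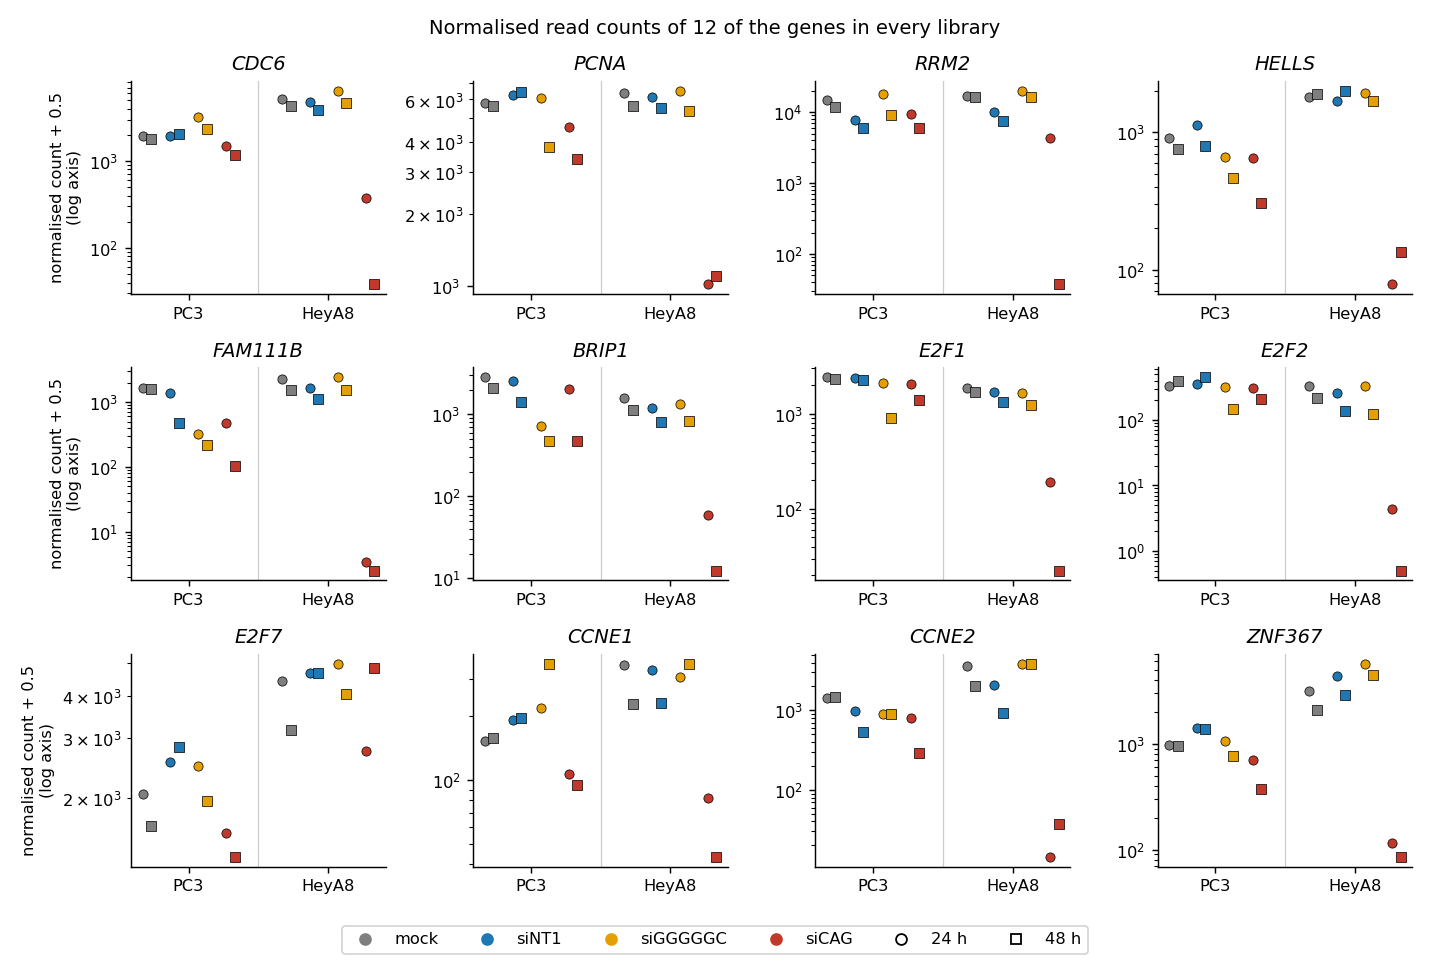
Normalised read counts (0.5 added, log axis) of 12 of the genes in every library, PC3 on the left and HeyA8 on the right of each panel, with colour for the treatment, circles for 24 h and squares for 48 h. HeyA8 siCAG points are the lowest of the HeyA8 libraries in every panel but that of E2F7, and siNT1 points for RRM2 lie below mock in both lines.

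siCAG and siGGGGGC were also compared with each other within a line. In HeyA8 cells 45 members were lower after siCAG than after siGGGGGC and 0 higher, beside 7.73% and 7.64% of all genes. FAM111B (-9.58 ± 0.33), CCNE2 (-7.21 ± 0.68), E2F2 (-6.76 ± 0.63) and ZNF367 (-5.69 ± 0.26) were farthest apart, and PCNA (-2.48 ± 0.22), E2F1 (-4.03 ± 0.72) and CCNE1 (-2.47 ± 0.35) also passed. The number was 13 without the siGGGGGC library of 24 h and 7 without that of 48 h. In PC3 cells 12 were lower and 1 higher, beside 8.56% and 7.31%. These were ORC1, ORC6, CDC6, GINS1, POLE, RFC5, FEN1, RRM1, RRM2, TYMS, E2F7 and CCNE1, with CCNE1 at -1.49 ± 0.26 (adjusted p = 0.0123), and TIPIN was higher (0.91 ± 0.24, adjusted p = 0.042). E2F1 (0.24), PCNA (-0.30), CCNE2 (-0.83) and ZNF367 (-0.78) did not pass in PC3 cells. The calls of these 13 were not kept without the PC3 siCAG library of 48 h.

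Mock-treated cells differed between the lines in 15 members, 14 lower in PC3 and 1 higher, where 19.9% of all genes were called lower and 25.6% higher. The share of members called lower was thus near the background, and the share called higher was below it. MCM4 (-2.11 ± 0.44, adjusted p = 0.0027), CDC6 (-1.97 ± 0.64, adjusted p = 0.0265) and ZNF367 (-1.72 ± 0.25, adjusted p = 0.00028) were farthest down among the members called, and POLA1 was higher in PC3 cells (1.04 ± 0.34, adjusted p = 0.0287). Over the alternatives CDC6 ranged from -2.53 to -1.56 and ZNF367 from -1.87 to -1.47, so their order is not fixed. Without the time term CDC6 and LIG1 lost their calls and CHEK1 gained one. MCM5, RFC3, RFC4, LIG1, CHAF1A, HELLS, SLBP, TIPIN, RAD51AP1, E2F7 and CCNE1 were the other members lower in PC3. E2F1 (-0.04), CCNE2 (-1.05) and PCNA (-0.25) did not pass. All these estimates come from the fit over 16 libraries, siCAG included, with time as a term. Per kilobase of the gene length in the count table, TK1 was the most abundant member in both lines, at a mean CPM (reads scaled to library size) per kilobase of 128 in PC3 and 117 in HeyA8 mock libraries. How the length was computed is not given in the sources used here. Between 4 and 8 members were called when a mock library was left out.

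No member passed between 48 and 24 h in PC3 cells, where 0.0264% of genes were lower and 0% higher, or in HeyA8 cells, where 0% were lower and 0% higher. Estimates were negative in 55 members in PC3 cells, with 23 lower and 0 higher at an unadjusted p under 0.05, and in 52 in HeyA8 cells, with 5 lower and 0 higher. The time term averages over all treatments, siCAG included, and with the mock and siNT1 libraries of HeyA8 cells alone 17 members were called lower and 1 higher, CDC6, CDT1, ORC1, E2F2 and CCNE1 among the 18, beside 899 lower and 692 higher over all genes in that fit. DESeq2 called 6 members in PC3 and 0 in HeyA8 cells, beside 121 genes lower and 98 higher in PC3 and 33 lower and 28 higher in HeyA8 cells. With edgeR, the counts over all genes at an unadjusted p under 0.05 were 1078 lower and 954 higher in PC3 and 520 lower and 359 higher in HeyA8 cells. RRM2 in PC3 cells was at -0.60 ± 0.13 (adjusted p = 0.276) and PCNA at -0.28 ± 0.14 (adjusted p = 0.422). E2F1, CCNE1, CCNE2 and ZNF367 were at -0.47, 0.16, -0.56 and -0.35 in PC3 and at -0.84, -0.45, -0.32 and -0.50 in HeyA8 cells. In HeyA8 cells PCNA was at -0.13.

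Of 40 further replication and E2F target genes, 19 fell, 0 rose and 21 did not pass in HeyA8 cells after siCAG, with a median of -2.11, where 4.93% of all genes were called lower. BRCA2 had 1762 and 1454 normalised counts after siNT1 and 146 and 37.7 after siCAG (log2 fold change -4.30 ± 0.45, adjusted p = 0.00686). DSCC1, a clamp loader partner, fell by 4.29, GMNN, which restrains licensing, by 3.31 and the nuclease DNA2 by 3.30 on the log2 scale. In PC3 cells after siCAG, where 1.16% of all genes were called lower and 0.0396% higher, 0 of the 40 fell and POLE3, a polymerase epsilon subunit, rose (0.90 ± 0.15, adjusted p = 0.0323). It had 2156 and 1842 after siNT1, 3734 and 3736 after siCAG and 3527 and 3295 in mock libraries. After siGGGGGC in PC3 cells, where 6% of all genes were called lower and 3.67% higher, 3 of the 40 fell, WDHD1 lowest (-1.39 ± 0.25, adjusted p = 0.0234), and 2 rose, POLE3 (1.31 ± 0.15, adjusted p = 0.00875) and the single-strand binding subunit RPA1 (1.21 ± 0.15, adjusted p = 0.0111). RPA1 had 4447 and 4364 in mock libraries, 2761 and 2709 after siNT1 and 5779.9 and 6877 after siGGGGGC, so like POLE3 and RRM2 its control libraries lay below mock. In HeyA8 cells 0 of the 40 passed after siGGGGGC.

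Of the 13 E2F partners and pocket proteins 3 fell in HeyA8 cells after siCAG (RBL1, LIN9 and LIN54), beside the same 4.93% of all genes, and the median was -0.46. RBL1, a pocket protein, had 1944 and 1629.5 normalised counts after siNT1 and 246 and 152 after siCAG (log2 fold change -3.20 ± 0.24, adjusted p = 0.00263). RB1 did not pass (-1.16 ± 0.56, adjusted p = 0.217), with 5166 and 4649.6 after siNT1 and 947 and 3876 after siCAG. After siGGGGGC in PC3 cells RBL1 fell (-1.03 ± 0.22, adjusted p = 0.0335) and E2F5, a repressor-type E2F, rose (1.10 ± 0.25, adjusted p = 0.0379), and CDKN1A fell from 1503 and 916 to 904 and 281 (-1.17 ± 0.27, adjusted p = 0.0392). In PC3 after siCAG and in HeyA8 after siGGGGGC 0 of the 13 passed.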

How the data were processed

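Total RNA from 16 libraries was sequenced with a TruSeq Total RNA kit. Per the labels, the authors aligned reads with STAR to hg38 and deposited HTSeq read counts per gene symbol in 1 table; whether counting used strand is not given in the sources used here. In GENCODE v44, 31 of the 56 genes were overlapped by a gene on the opposite strand and 10 have a named pseudogene, so their reads could be shared. No column of the table was left unused.

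Genes passing filterByExpr were fitted per line over its 8 libraries with siRNA and time as terms (edgeR 4.0.16, R 4.3.3, TMM, quasi-likelihood test, Benjamini-Hochberg adjusted p under 0.05); contrasts between the lines used all 16 libraries. Normalised counts are scaled by TMM library size within a line. The 24 and 48 h libraries were the replicates of a condition. Self-tests on simulated counts were run first. Alternatives were DESeq2 1.42.0, RLE size factors, no filter, no time term, the compared conditions alone, mock as control and leaving out libraries; fits without siCAG libraries were added after the data were seen.

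The members, lists and rules were chosen with earlier results of these data known. Genes named are the called member with the largest change in each role, the 4 largest called in each direction in each siRNA comparison with siNT1 (or the 4 smallest p), and E2F1, CCNE1, CCNE2, ZNF367 and PCNA; from the other lists, the 4 largest called, and CDKN1A and RB1; 1 further gene of this rule is not reported here. Further members are named to account for all 56, and any others were picked once their values were known. Promoters are those of the 4 members lowest in HeyA8 siCAG and of the first-named member of each role, at most 6 in order of change, where the table held one, leaving out chromosome 8. Confidence intervals cover counting error only.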

Additional observations from a re-analysis of the deposited data

Results flagged for a closer look

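In 12 of the 56 genes the effect of siCAG against siNT1 differed between the lines by a test of the difference itself (edgeR interaction term over 16 libraries). The difference, PC3 minus HeyA8 on the log2 scale, was 7.19 for FAM111B, 5.82 for E2F2, 5.15 for CCNE2, 3.99 for BRIP1 and 3.64 for ZNF367. It was 3.01 for MCM4, 3.01 for POLE2, 2.98 for RFC3, 2.96 for HELLS and 2.74 for PRIM1, and 1.66 for both PCNA and RFC4. In all 12 the estimate was lower in HeyA8 than in PC3 cells. The values for FAM111B and E2F2 rest on 4 or fewer reads in each HeyA8 siCAG library. CDKN1A rose in HeyA8 cells after siCAG and did not pass in PC3 cells, and its part in these differences was not tested.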

How the results depend on the processing

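Counts of members called moved with the fit. Where the calls over all genes in a fit are not given, its count cannot be set against a background. HeyA8 siCAG against siNT1 (41) gave 8 to 56 when a library was left out, and against siGGGGGC (45) 7 to 56. PC3 siCAG against siNT1 (1) gave 45 with its 4 libraries alone, 11 with DESeq2, 4 with mock as control, 4 with no filter, 0 with no time term and 0 to 3 without a library. PC3 siGGGGGC against siNT1 (6) gave 13 with DESeq2, 11 with mock, 12 with no filter, 1 with no time term and 0 to 20 without a library. PC3 siCAG against siGGGGGC (13) gave 6 with its 4 libraries alone and 1 to 13 without a library. The siCAG difference between lines (12) gave 36 with DESeq2, 7 with no time term and 1 to 52 without a library: 3 without either HeyA8 siNT1 library, 2 without the 24 h PC3 siNT1 or siCAG library, 37 without the 48 h HeyA8 siCAG library. Mock PC3 against HeyA8 (15) gave 4 to 8 without a library. Of contrasts with 0 calls, HeyA8 siGGGGGC gave 3 with its 4 libraries alone and 2 without siCAG libraries, HeyA8 siNT1 against mock 17 with its 4 libraries alone, PC3 siNT1 against mock 1 with its 4 libraries alone and 1 with DESeq2, HeyA8 48 against 24 h 18 from mock and siNT1 libraries alone, and PC3 48 against 24 h 6 with DESeq2. The siGGGGGC difference between lines stayed at 0. RRM2 after siGGGGGC in PC3 cells changed sign against mock (-0.046). Of 605 alternatives for named members 461 kept direction and side of the threshold, 143 lost the call and 1 changed sign. Over all genes, siCAG against siNT1 gave 684 lower and 399 higher in HeyA8 cells, and 1513 and 1152 with DESeq2. In PC3 cells it gave 176 and 6, and 458 and 114 with DESeq2. The cause of these differences was not tested. Libraries of a time were compared within that time by the time term, and the labels carry no other pairing. At this depth the fewest reads, not the library totals, limit FAM111B and E2F2.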

Other observations

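Outside the 56 genes, the siCAG effect also differed between the lines in 8 of 40 other replication genes and in 1 of 13 E2F partners, RBL1 (2.37 ± 0.33, adjusted p = 0.011, edgeR). Over all 15887 genes tested, 0.384% were called higher and 0.252% lower by the same term. DSCC1 differed by 3.41, DNA2 by 2.53 and GMNN by 2.39 on the log2 scale, less lowered in PC3 cells. These genes were chosen for naming after their values were seen. In HeyA8 cells RB1 read 947 at 24 h and 3876 at 48 h after siCAG, where E2F1 went from 190.5 to 21.8 over the same times. CDKN1A was at 1503 and 916 normalised counts after siNT1 in PC3 cells and at 598 and 318 in mock libraries, and the difference did not pass (1.43 ± 0.27, adjusted p = 0.128).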
